A study of Homo sapiens with 6 samples.

Results

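The genes described here are the 9 neighbours of LAMA3 on chromosome 18q11, CABLES1, TMEM241, RIOK3, NPC1, ANKRD29, TTC39C, CABYR, OSBPL1A and IMPACT. They are 9 of the 34234 genes in the deposited count table, and all 9 were among the 17935 genes that passed the filter on low counts. They were chosen by position, on either side of LAMA3, after LAMA3 had been seen to be higher in this same comparison, so their differences between the groups are a description and carry no test of their own. The RNA came from HCCLM3, a line of human liver cancer cells (hepatocellular carcinoma) that was selected for frequent metastasis. HCCLM3 cells carried a lentiviral short hairpin RNA against ATXN7L3 (shATXN7L3, 3 libraries) or a lentiviral control hairpin (shcontrol, 3 libraries), and poly-A RNA was sequenced. Both groups were in contact with virus for 16 h before the medium was replaced, and the labels give no other treatment and no time of harvest. All libraries come from a single cell line and the labels give a single hairpin name per group, so an effect of knocking down ATXN7L3 and one of that particular hairpin cannot be told apart.

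ATXN7L3 is an adaptor of the deubiquitinase module of the SAGA coactivator complex, which removes ubiquitin from histone H2B at transcribed genes. LAMA3 encodes a laminin alpha chain, part of a basement membrane protein of epithelia. Genes that lie side by side can share enhancers and a chromatin domain, but adjacent genes are also often controlled separately, so a change in 1 gene need not extend to the next. The question asked here was whether the higher LAMA3 RNA in shATXN7L3 cells belonged to a stretch of the chromosome or to single genes.

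The hairpin target was checked first. ATXN7L3 on chromosome 17 (44191805 to 44200113) had 20.6, 20.5 and 19.5 CPM (counts per 1e+06 counts of the library, scaled by the TMM method) in the shATXN7L3 libraries, against 36.4, 37.5 and 37.5 CPM in the shcontrol libraries. Its log2 fold change was -0.88 ± 0.056 (SE, 3 against 3 libraries; edgeR quasi-likelihood adjusted p = 6.69e-10). The libraries held 22376867 to 23915783 counts each. Of all tested genes, 12.2% were called higher and 12.0% lower in shATXN7L3 at an adjusted p under 0.05. The labels do not state that replicates were separate cultures, so p-values measure the spread among these libraries only.

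A stretch of 4 adjacent protein-coding genes was higher in shATXN7L3 cells: C18orf8, NPC1, ANKRD29 and LAMA3, in that order along the chromosome. Together they span 451.6 kb (23503470 to 23955066). C18orf8 shares exon bases with NPC1. In a calculation chosen after seeing the data, the NPC1 reads expected there under even coverage were subtracted from C18orf8. Its log2 fold change was then 0.13 and no longer past the threshold (edgeR quasi-likelihood adjusted p = 0.223). Under that assumption, which was not checked, the called stretch holds 3 genes, and a small rise of C18orf8 remains possible. ANKRD29 and LAMA3, whose annotated 5′ ends face each other, had 3.88-fold and 3.3-fold the shcontrol level. NPC1 was at 156% and C18orf8 at 121%. Counts per gene do not tell which LAMA3 start was in use. The coding genes that border the stretch, RIOK3 on one side and TTC39C on the other, were at 89.4% and 99.5% of their shcontrol levels. Of the 9 neighbours, 3 were called higher (NPC1, ANKRD29, OSBPL1A), 2 were called lower (CABLES1, RIOK3) and 4 were not called (TMEM241, TTC39C, CABYR, IMPACT). Nothing is read from these counts against the background of 12.2% and 12.0%, because the neighbours were picked in view of the same comparison. The median log2 fold change of the 9 neighbours was 0.05, beside 0.01 over all tested genes.

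**Figure D1:**
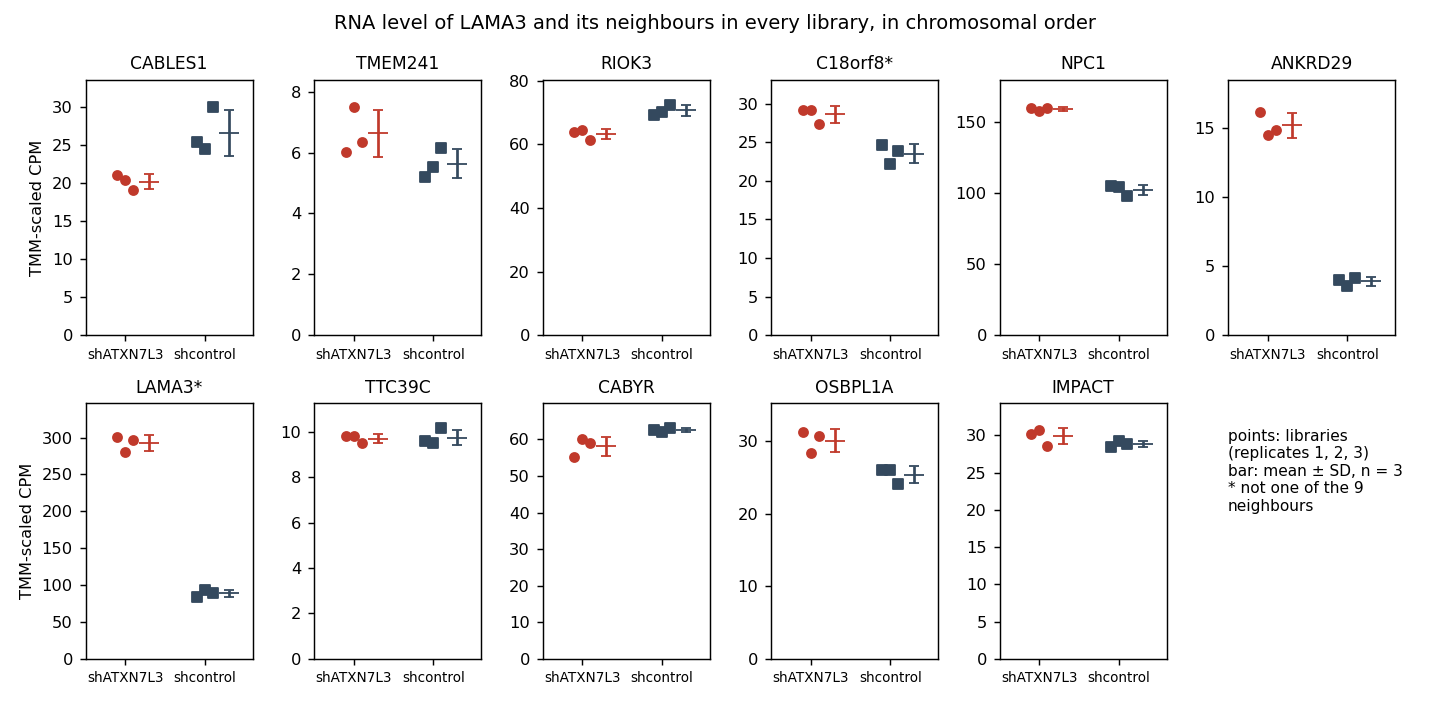
TMM-scaled CPM (vertical axes, each starting at 0) of LAMA3, C18orf8 and the 9 neighbours in the 3 shATXN7L3 and 3 shcontrol libraries, with the mean ± SD. For ANKRD29, LAMA3 and NPC1 the shATXN7L3 points lie far above the shcontrol points, while for TTC39C and IMPACT they overlap.

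ANKRD29 encodes an ankyrin repeat protein whose function is little known. It lies on the minus strand at 23598926 to 23662885 on chromosome 18 (GRCh38). Its annotated 5′ end faces the outermost annotated 5′ end of LAMA3 across 26.6 kb. An internal LAMA3 start lies 183.6 kb further into that gene, and which start was in use was not measured. ANKRD29 RNA stood at 16.2, 14.5 and 14.9 CPM in shATXN7L3 libraries, against 4.0, 3.54 and 4.17 CPM in shcontrol libraries. Every shATXN7L3 library was more than 3 times above every shcontrol library. The means were 15.2 ± 0.873 and 3.91 ± 0.325 CPM (SD, n = 3 each), and the log2 fold change was 1.95 ± 0.097 (SE), a level between 339% and 443% of shcontrol at 2 SE. These values rest on 376, 350 and 355 counts in shATXN7L3 libraries and 90, 77 and 95 counts in shcontrol libraries. By log2 fold change, ANKRD29 ranked 12 and LAMA3 20 from the top of all tested genes.

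LAMA3 lies on the plus strand at 23689443 to 23955066. It had 300.2, 280.3 and 297 CPM in shATXN7L3 libraries, against 83.2, 93.6 and 89.5 CPM in shcontrol libraries, a log2 fold change of 1.72 ± 0.050 (SE). In absolute terms LAMA3 gained 204 CPM, NPC1 57.0 CPM and ANKRD29 11.3 CPM. The ratio of LAMA3 to ANKRD29 CPM was 18.6, 19.3 and 20.0 in shATXN7L3 libraries, against 20.8, 26.4 and 21.4 in shcontrol libraries. Both genes thus moved by a like factor, with a ratio that was slightly lower in each shATXN7L3 library than in any shcontrol library.

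NPC1, the lysosomal membrane protein that passes cholesterol out of late endosomes and lysosomes, lies on the minus strand at 23506184 to 23586898, 12.0 kb beyond the 3′ end of ANKRD29. It reached 160.1, 158 and 159.7 CPM in shATXN7L3 libraries, against 105, 104 and 97.9 CPM in shcontrol libraries. The groups were clear of each other and the libraries of each lay close together, at 159 ± 1.21 CPM in shATXN7L3 and 102 ± 3.76 CPM in shcontrol (SD, n = 3 each). The log2 fold change was 0.64 ± 0.044 (SE), or 146% to 166% of shcontrol at 2 SE. NPC1 thus rose by much less than ANKRD29 and LAMA3, whose ranges at 2 SE start at 339% and 308%.

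C18orf8, named RMC1 in RefSeq, encodes a subunit of the MON1-CCZ1 complex that activates RAB7 and is needed for the export of cholesterol from lysosomes. It was not among the 9 neighbours but lies within the interval, on the plus strand at 23503470 to 23531807, and its body overlaps that of NPC1 over 25.6 kb. C18orf8 had 29.2, 29.2 and 27.3 CPM in shATXN7L3 libraries, against 24.6, 22.2 and 23.8 CPM in shcontrol libraries. Its log2 fold change was 0.28 ± 0.061 (SE; edgeR quasi-likelihood adjusted p = 0.00193), with every shATXN7L3 library above every shcontrol library. The exons of C18orf8 and NPC1 share 604 bases, 19.5% of the exon length of C18orf8 and 5.98% of that of NPC1, on opposite strands. In general the counts do not keep such reads apart by strand. Among 325 genes whose exons lie wholly within exons of an opposite-strand gene, the median count density was 1.16 times that of the host. The ratio varied widely, above 0.5 for 243 of these genes and under 0.1 for 36. How many reads C18orf8 and NPC1 share was not measured. Even coverage of NPC1 would place 9.52 CPM in shATXN7L3 and 6.11 CPM in shcontrol on the shared bases, a difference of 3.41 CPM out of the 5.04 CPM by which C18orf8 differed. With this even share subtracted in each library, a calculation chosen after seeing the data, the log2 fold change of C18orf8 was 0.13 and no longer past the threshold. The same calculation the other way places 0.985 CPM of C18orf8 difference on NPC1, out of 57.0 CPM.

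Promoter sequences are shown for the genes of the stretch that had an entry in RefSeq and for both coding genes that border it. C18orf8 had 2 entries with overlapping windows, and only the first is shown. Sequences came from RefSeq (GRCh38.p14), 300 bases per entry, from 250 before the transcript start to 50 after it, written 5′ to 3′ on the strand of the gene. Of the 9 neighbours, 7 had an entry, and ANKRD29 and TMEM241 had none. Capitals mark matches, on either strand, to 5 short motifs. These were TGANTCA for the AP-1 family of factors, GGAATG for the TEAD family of factors, GGGCGG for the SP1 family of factors, TATAAA for the box that binds the general initiation factors, and CACGTG for the E-box of helix-loop-helix factors. Matches that adjoin or overlap run together in capitals. The LAMA3 entry is chr18:23872770-23873069 (plus strand) and starts transcription 183.6 kb inside the gene, at an internal start; NPC1 is chr18:23586457-23586756 (minus strand), C18orf8 chr18:23503220-23503519 (plus strand), RIOK3 chr18:23453037-23453336 (plus strand) and TTC39C chr18:24113077-24113376 (plus strand, 120.6 kb inside the gene).
LAMA3: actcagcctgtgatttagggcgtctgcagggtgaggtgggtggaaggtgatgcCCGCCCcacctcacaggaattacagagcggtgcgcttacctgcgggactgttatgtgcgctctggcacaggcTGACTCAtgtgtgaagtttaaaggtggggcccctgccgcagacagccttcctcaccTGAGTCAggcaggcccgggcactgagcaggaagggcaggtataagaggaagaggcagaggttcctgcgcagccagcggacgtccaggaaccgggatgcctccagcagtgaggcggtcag
NPC1: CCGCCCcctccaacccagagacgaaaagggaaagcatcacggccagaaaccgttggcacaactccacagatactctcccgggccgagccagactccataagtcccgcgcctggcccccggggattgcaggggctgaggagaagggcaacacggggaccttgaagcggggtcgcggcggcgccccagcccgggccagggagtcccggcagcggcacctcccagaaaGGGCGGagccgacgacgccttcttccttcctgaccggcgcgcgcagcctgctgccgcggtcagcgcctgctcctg
C18orf8: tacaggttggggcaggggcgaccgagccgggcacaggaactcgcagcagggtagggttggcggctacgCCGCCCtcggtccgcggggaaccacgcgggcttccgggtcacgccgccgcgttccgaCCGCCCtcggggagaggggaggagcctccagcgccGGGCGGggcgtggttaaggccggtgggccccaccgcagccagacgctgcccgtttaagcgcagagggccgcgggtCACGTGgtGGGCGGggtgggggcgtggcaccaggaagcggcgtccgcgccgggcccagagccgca
RIOK3: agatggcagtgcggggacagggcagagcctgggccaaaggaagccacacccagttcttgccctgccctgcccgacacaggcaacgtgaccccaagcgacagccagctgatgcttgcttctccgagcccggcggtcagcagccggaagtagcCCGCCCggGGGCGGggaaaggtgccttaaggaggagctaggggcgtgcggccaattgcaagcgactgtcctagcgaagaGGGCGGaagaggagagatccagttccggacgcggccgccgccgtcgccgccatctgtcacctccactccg
TTC39C: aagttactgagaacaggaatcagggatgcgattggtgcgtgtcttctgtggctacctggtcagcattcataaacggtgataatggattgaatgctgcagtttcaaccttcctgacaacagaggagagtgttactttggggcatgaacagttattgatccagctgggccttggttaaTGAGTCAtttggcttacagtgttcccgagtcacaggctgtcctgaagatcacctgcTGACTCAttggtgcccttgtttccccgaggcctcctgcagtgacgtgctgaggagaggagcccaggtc
With the transcript start as position 0, the LAMA3 window held AP-1 letters at -125 and -69 and SP1 letters at -197. The NPC1 window held SP1 letters at -250 and -25 and none of the other letters searched. SP1 letters were found at -182, -125, -90 and -7 and E-box letters at -15 in the C18orf8 window shown, and SP1 letters at -99, -91 and -20 for RIOK3. The C18orf8 window not shown held SP1 letters at -223, -166, -131 and -48 and E-box letters at -56. The TTC39C window held AP-1 letters at -74 and -18. The LAMA3 and TTC39C windows lie at internal starts, and use of these starts in these cells was not measured. Of 35116 RefSeq promoter windows, 7.71% held the AP-1 letters, 14.0% TEAD, 45.0% SP1, 11.5% TATA and 7.26% E-box letters. A match describes the letters only.

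**Figure D2:**
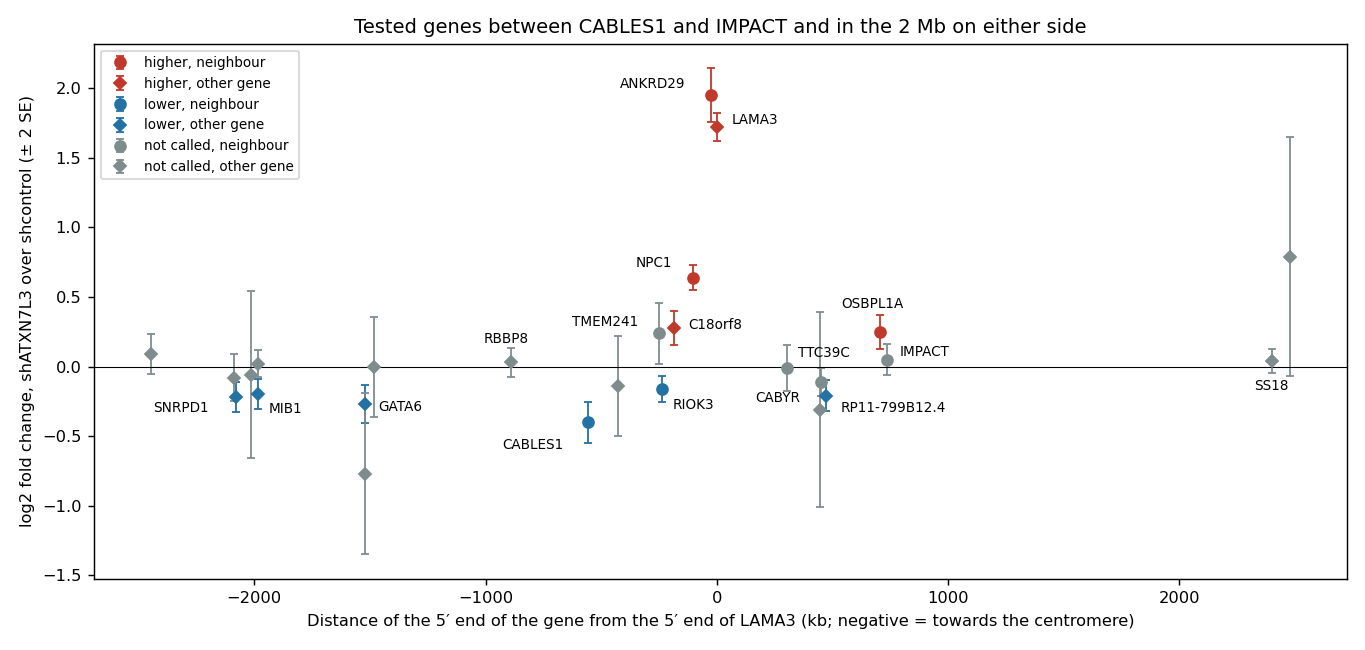
Log2 fold change (shATXN7L3 over shcontrol, ± 2 SE) of every tested gene from 2 Mb before CABLES1 to 2 Mb after IMPACT. Each gene is placed by the distance in kb of its outermost annotated 5′ end from that of LAMA3. ANKRD29 at 1.95 and LAMA3 at 1.72 stand apart at the centre, NPC1 (0.64) and C18orf8 (0.28) lie on the side towards the centromere, and the flanks hold no gene called higher.

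On the side towards the centromere, RIOK3 and CABLES1 were lower, and TMEM241 was at 118% of shcontrol but not past the threshold. RIOK3, an atypical kinase of the RIO family that takes part in maturation of the small ribosomal subunit, lies on the plus strand at 23452823 to 23486603, 16.9 kb from C18orf8. It had 63.8, 64.4 and 61.3 CPM in shATXN7L3 libraries, against 69.2, 70.3 and 72.5 CPM in shcontrol libraries. All shATXN7L3 libraries were below all shcontrol libraries, by a small margin, with a log2 fold change of -0.16 ± 0.047 (SE), or 83.7% to 95.4% of shcontrol at 2 SE. The RIOK3 call was lost with scaling by library size alone (log2 fold change -0.12, edgeR quasi-likelihood adjusted p = 0.0841), without shATXN7L3 replicate 1 (adjusted p = 0.0539) and without shATXN7L3 replicate 3 (adjusted p = 0.101).

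TMEM241, a membrane protein related to nucleotide sugar carriers, lies on the minus strand at 23197144 to 23437961. Its level was low, 6.02, 7.51 and 6.36 CPM in shATXN7L3 libraries against 5.2, 5.52 and 6.15 CPM in shcontrol libraries. Groups overlapped, and the log2 fold change of 0.24 ± 0.11 (SE), or 101% to 138% of shcontrol at 2 SE, was not past the threshold. CABLES1, an adaptor that links cyclin-dependent kinases to the kinases that phosphorylate them, lies on the plus strand at 23134564 to 23260467 and overlaps the body of TMEM241 over 63.3 kb. It had 21.0, 20.4 and 19.1 CPM in shATXN7L3 libraries, against 25.4, 24.5 and 30.0 CPM in shcontrol libraries. CABLES1 was lower in every shATXN7L3 library than in any shcontrol library, with shcontrol replicate 3 the highest of all. Its mean was 20.2 ± 0.996 CPM in shATXN7L3 and 26.6 ± 2.97 CPM in shcontrol (SD, n = 3 each), with a log2 fold change of -0.40 ± 0.074 (SE).

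Beyond LAMA3, on the side away from the centromere, the next 2 neighbours were not higher either. TTC39C, a tetratricopeptide repeat protein that is little characterised, lies on the plus strand at 23992773 to 24135610, 37.7 kb past the 3′ end of LAMA3. It had 9.81, 9.83 and 9.5 CPM in shATXN7L3 libraries, against 9.6, 9.53 and 10.2 CPM in shcontrol libraries. The groups overlapped and the means were 9.71 ± 0.185 and 9.76 ± 0.34 CPM (SD, n = 3 each). At 2 SE the TTC39C level lay between 88.8% and 111% of shcontrol, a range that leaves out increases of the size seen in NPC1.

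CABYR, a calcium-binding protein of the fibrous sheath of sperm that is also found in some tumours, lies on the plus strand at 24138956 to 24161603. It had 55.1, 60.1 and 59.0 CPM in shATXN7L3 libraries, against 62.6, 62.0 and 63.1 CPM in shcontrol libraries. Although the groups did not overlap, the log2 fold change of -0.11 ± 0.049 (SE) was not past the threshold. By the order of libraries alone, 3 neighbours had all shATXN7L3 libraries above (NPC1, ANKRD29, OSBPL1A), where 19.8% of all tested genes did, and 3 had them all below (CABLES1, RIOK3, CABYR), where 18.4% did. The other 3 overlapped.

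OSBPL1A, a sterol-binding protein of late endosomes that works with RAB7, lies on the minus strand at 24162044 to 24397880, with TTC39C and CABYR between it and LAMA3. It had 31.3, 28.4 and 30.7 CPM in shATXN7L3 libraries, against 26.1, 26.0 and 24.1 CPM in shcontrol libraries. Each shATXN7L3 library exceeded each shcontrol library, and the log2 fold change was 0.25 ± 0.060 (SE), or 109% to 129% of shcontrol at 2 SE. OSBPL1A was thus called higher outside the LAMA3 stretch, by far less than ANKRD29 and LAMA3. Of all tested genes, 12.2% were called higher. IMPACT, which restrains the amino acid sensing kinase GCN2 by binding GCN1, lies next on the plus strand at 24426616 to 24453535. It had 30.2, 30.7 and 28.6 CPM in shATXN7L3 libraries, against 28.4, 29.2 and 28.8 CPM in shcontrol libraries. IMPACT levels overlapped between the groups, with a log2 fold change of 0.05 ± 0.056 (SE).

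The interval from the start of CABLES1 (23134564) to the end of IMPACT (24453535) is 1.32 Mb long and holds 23 genes of the table, of which 14 were tested. The 9 untested genes had at most 28 counts each over the 6 libraries. Besides the 9 neighbours, LAMA3 and C18orf8, the tested genes were 3 genes whose names were not found in the GENCODE release used. RP11-799B12.4, at 24159509 to 24162211 on the minus strand between CABYR and OSBPL1A, was called lower. It had 25.3, 25.6 and 26.3 CPM in shATXN7L3 libraries, against 30.8, 29.4 and 28.9 CPM in shcontrol libraries (log2 fold change -0.21 ± 0.056 SE, edgeR quasi-likelihood adjusted p = 0.0109). Its exons share 43.5% of their length with CABYR and 22.9% with OSBPL1A, so its reads cannot be assigned to it alone, and its call was lost without shATXN7L3 replicate 1. RP11-17J14.2, with 83.8% of its exon length within CABLES1 exons, had a log2 fold change of -0.14 (adjusted p = 0.644), and RP11-799B12.1 had one of -0.31 (adjusted p = 0.585).

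Outside the interval, the 2 Mb on either side held 32 genes of the table, of which 12 were tested, 10 before CABLES1 and 2 after IMPACT. None of the 12 was called higher and 3 were called lower by the edgeR quasi-likelihood test. These were SNRPD1, a core protein of the spliceosome (log2 fold change -0.22 ± 0.054 SE, adjusted p = 0.00508), MIB1, a ubiquitin ligase of Notch ligands (-0.20 ± 0.054 SE, adjusted p = 0.00994), and GATA6, an endodermal transcription factor (-0.27 ± 0.068 SE, adjusted p = 0.00703). The nearest tested genes just outside were RBBP8, 108.1 kb before CABLES1, with a log2 fold change of 0.03, and SS18, 1.56 Mb after IMPACT, with 0.04. Over chromosome 18 as a whole, 39 of 264 tested genes (14.8%) were higher and 34 (12.9%) lower, where 12.2% of all tested genes in the genome were higher and 12.0% lower.

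Levels between the neighbours are compared per kilobase of counted exon length. In shATXN7L3 cells CABYR (16.5 ± 0.745 CPM per kb) and NPC1 (15.8 ± 0.12) came first, and their libraries overlapped. RIOK3 followed (11.9 ± 0.302), then IMPACT (6.07 ± 0.23), OSBPL1A (3.75 ± 0.192), CABLES1 (3.03 ± 0.15) and ANKRD29 (2.38 ± 0.137), each clear of the next. TTC39C (1.35 ± 0.0258) and TMEM241 (1.28 ± 0.15) came last and overlapped. In shcontrol cells the order of CPM per kb was CABYR (17.8 ± 0.157), RIOK3 (13.3 ± 0.324), NPC1 (10.1 ± 0.372), IMPACT (5.86 ± 0.0801), CABLES1 (4.0 ± 0.446), OSBPL1A (3.17 ± 0.142), TTC39C (1.36 ± 0.0474), TMEM241 (1.08 ± 0.0932) and ANKRD29 (0.611 ± 0.0509), with no neighbouring pair overlapping (SD, n = 3 libraries throughout). ANKRD29 thus had the lowest level of the 9 in shcontrol cells and stood above TTC39C and TMEM241 in shATXN7L3 cells. Per kilobase it was still well below LAMA3, which had 21.6 CPM per kb in shATXN7L3 cells and 6.56 CPM per kb in shcontrol cells. In such bulk RNA, a higher level in all cells and a larger share of cells that express the gene cannot be told apart.

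**Figure D3:**
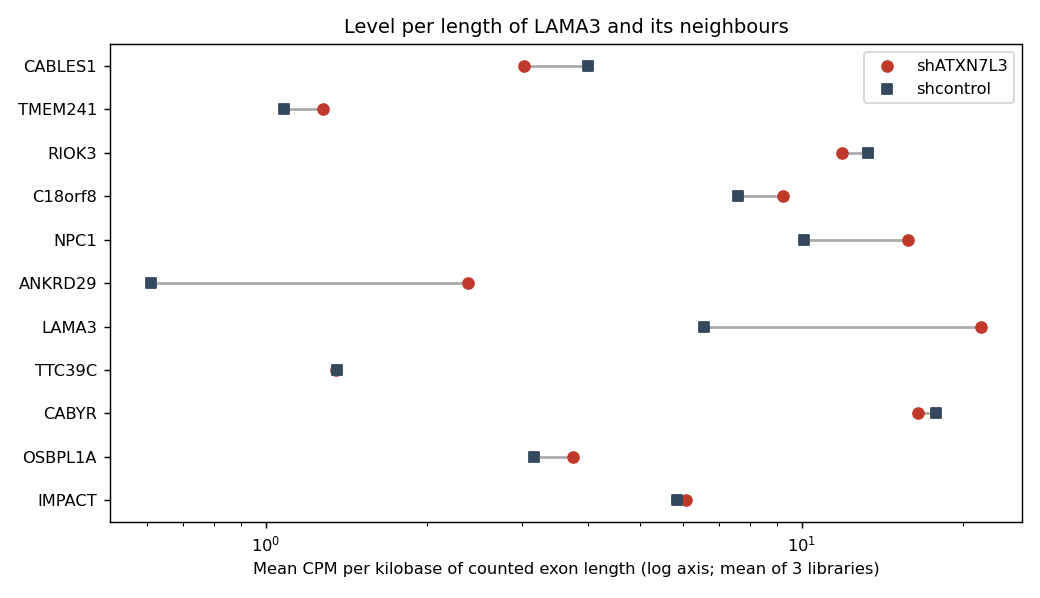
Mean CPM per kilobase of counted exon length (log axis, 3 libraries per group) of LAMA3, C18orf8 and the 9 neighbours, in chromosomal order, with a line joining shATXN7L3 (circle) and shcontrol (square). The longest lines are those of ANKRD29 (2.38 and 0.611) and LAMA3 (21.6 and 6.56), while TTC39C (1.35 and 1.36) has almost none.

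Runs of adjacent genes called higher were not particular to this locus. Along all chromosomes, 12928 tested protein-coding genes were placed in order, and runs of consecutive genes called in the same direction were counted. There were 80 runs of at least 3 genes called higher, 19 of at least 4 and 5 of at least 5, beside 87, 25 and 10 runs called lower. Of all tested protein-coding genes, 14.5% were called higher and 14.3% lower. Some runs hold combined or overlapping entries, such as PPT2, PPT2-EGFL8 and EGFL8, which can count the same reads. Shared reads were not subtracted in these counts, so not every run is made of separate genes. Of the 19 runs of at least 4 genes, the stretch from C18orf8 to LAMA3 had the highest median log2 fold change, 1.18. Its place among runs of at least 4 rests on the C18orf8 call, and without that call it is a run of 3. The next was PYCARD to ITGAX on chromosome 16 with 1.09, and the lowest was 0.21. In 3 of the 19, at least 3 genes were above 1.5-fold. Of the 12928 coding genes placed, 105 were called at least 2-fold higher. Among these 105, 17 (16.2%) had an adjacent coding gene that was also at least 2-fold higher, ANKRD29 and LAMA3 among them. What share scattered genes would give was not tested. The stretch was looked at because of its high values, so its place in this order is a description.

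**Figure D4:**
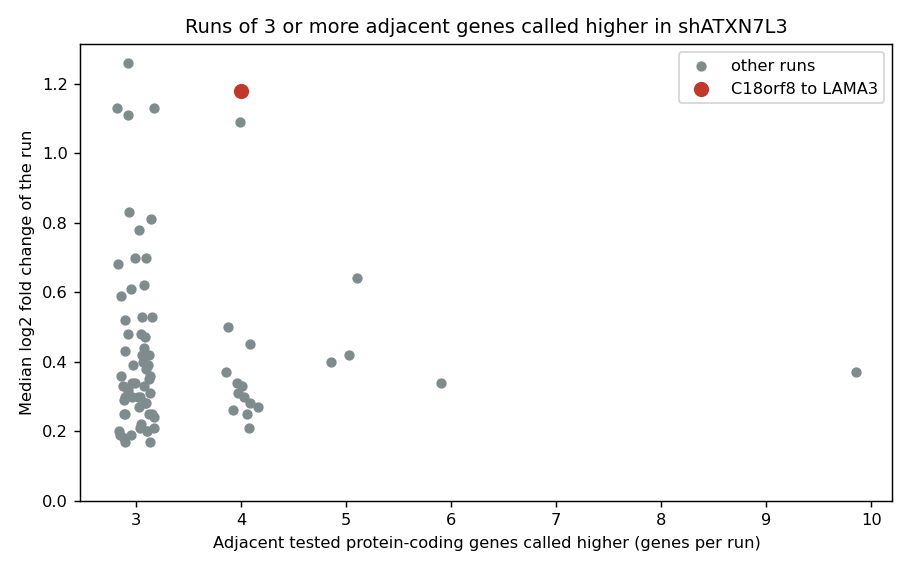
Number of adjacent tested protein-coding genes (horizontal axis) and median log2 fold change (vertical axis) of each run of 3 or more genes called higher in shATXN7L3, with a small sideways shift so that points do not hide each other. The run from C18orf8 to LAMA3 lies at 4 genes and 1.18, above the other runs of at least 4 genes, and some runs of 3 genes lie at a like height.

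Likeness of pattern was measured over the 6 libraries as the root mean square difference of log2 CPM, each gene centred on its own mean, among 12309 tested genes with an average log2 CPM of at least 2. The genes most like ANKRD29 were KIAA1462 on chromosome 10 (0.11) and LAMA3 (0.16). For each of the other 8 neighbours, LAMA3 was far down the order, at rank 11950 for NPC1 and between 12272 and 12305 for the rest. NPC1 was most like PTPRH (0.022) and STARD8 (0.037), and OSBPL1A most like MLPH (0.025) and RNASET2 (0.027). CABLES1 was nearest to PNPLA2 and FAM110B, TMEM241 to GALK1 and AC005363.9, and RIOK3 to PFKFB3 and OGFOD3. TTC39C was nearest to DYRK1A and NSUN2, CABYR to SDHA and ST3GAL4, and IMPACT to FTSJ1 and COPB2. With 2 groups of 3 libraries, this measure mostly reflects the size of the difference between the groups.

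Genes that work with each neighbour were taken as short lists and counted in the fit over all genes (edgeR quasi-likelihood test). Over all tested genes, 12.2% were called higher and 12.0% lower, and these shares stand beside every list count given below. Nothing is read from list counts near these shares. Of 11 other genes of lysosomal cholesterol export, the route that NPC1 serves, 1 was higher, 3 were lower and 7 did not pass, with a median log2 fold change of -0.09. NPC2, the soluble carrier that hands cholesterol to NPC1, rose by a log2 fold change of 0.23 ± 0.051 (SE, adjusted p = 0.00215). Levels fell for LAMP1, a lysosomal membrane glycoprotein (-0.50 ± 0.058, adjusted p = 2.51e-06), LIPA, the lysosomal acid lipase (-0.44 ± 0.056, adjusted p = 7.71e-06), and SCARB2, a lysosomal membrane protein (-0.23 ± 0.045, adjusted p = 0.000744). The median of these genes lay below that of all tested genes (0.01), but 7 of the 11 did not pass, so no contrast with NPC1 is drawn. C18orf8, also needed for this export, was not on the list. It had a log2 fold change of 0.28 before the reads shared with NPC1 were subtracted.

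Of 15 genes of the oxysterol-binding protein family and its partners on late endosomes and the endoplasmic reticulum, the family of OSBPL1A, 3 were higher (OSBPL2, OSBPL5, OSBPL7), 2 were lower (VAPA, OSBP) and 10 did not pass, with a median of -0.01. The largest of these log2 fold changes was that of OSBPL7 (0.39 ± 0.11 SE, edgeR adjusted p = 0.0143), close in size to OSBPL5 (0.38 ± 0.098 SE, adjusted p = 0.0074). Of 10 tested CABLES1 partners, 1 was lower, the junction and Wnt protein CTNNB1 (-0.17 ± 0.044 SE, adjusted p = 0.00934), and 9 did not pass, with a median of -0.01. Of 7 RIO kinases and small ribosomal subunit maturation factors, which act beside RIOK3, 1 was lower, RIOK1 (-0.19 ± 0.052 SE, adjusted p = 0.0114), and 6 did not pass (median -0.05).

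In the GCN2 pathway, which IMPACT restrains, 2 of 8 tested genes were higher, 0 were lower and 6 did not pass. The 2 were ATF4, the transcription factor made when the pathway is active (log2 fold change 0.37 ± 0.046 SE, edgeR adjusted p = 5.57e-06), and EIF2AK3, the kinase PERK that feeds into the same pathway (0.17 ± 0.053 SE, adjusted p = 0.0203). The median of the list was 0.01. Of 20 tested carriers of the SLC35 family, to which TMEM241 is related, 1 was higher (SLC35C1, the GDP-fucose carrier, 0.25 ± 0.057 SE, adjusted p = 0.0028) and 2 were lower (SLC35A5, -0.84 ± 0.067 SE, adjusted p = 1.73e-08, and SLC35A3, -0.36 ± 0.052 SE, adjusted p = 3.56e-05), with 17 not passing and a median of -0.01. Neither of the 2 relatives of TTC39C passed, and of the fibrous sheath partners of CABYR only SPA17 was tested and did not pass (log2 fold change 0.24).

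Of the integrin chains that act as receptors for the laminin built with the LAMA3 chain, ITGB4 and ITGA3 were higher and ITGA6 and ITGB1 were lower by the edgeR quasi-likelihood test. ITGB4, the integrin beta 4 chain, had 159 ± 1.86 CPM in shATXN7L3 and 94.3 ± 7.92 CPM in shcontrol (SD, n = 3 each; log2 fold change 0.75 ± 0.053 SE, edgeR adjusted p = 2.54e-09). ITGA3 rose by a log2 fold change of 0.17 ± 0.047 (SE, edgeR adjusted p = 0.0117). ITGA6 (-0.29 ± 0.043 SE, adjusted p = 4.96e-05) and ITGB1 (-0.27 ± 0.043 SE, adjusted p = 0.000112) fell. LAMA3, with a log2 fold change of 1.72, was further from its shcontrol level than any of these integrin chains.

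Markers of the labelled cell type moved between the groups as well. All 6 tested hepatocyte markers (ALB, SERPINA1, APOB, HNF4A, AFP, TTR) were lower by the edgeR test, where 12.0% of all tested genes were. Their summed level ran from 89.1 to 93.0 CPM in shATXN7L3 libraries, against 163 to 186 CPM in shcontrol libraries. APOA1 had 13 counts in shATXN7L3 and 28 counts in shcontrol over 3 libraries each. Of 2 tested endothelial markers, PECAM1 was lower, with 28.0 ± 0.726 CPM in shATXN7L3 and 43.7 ± 3.26 CPM in shcontrol, and KDR did not pass, with 15.3 ± 0.259 CPM in shATXN7L3 and 15.5 ± 2.63 CPM in shcontrol (SD, n = 3 each). Their sum ran from 42.2 to 44.1 CPM in shATXN7L3 libraries, against 57.0 to 61.8 CPM in shcontrol libraries. Of 2 tested leukocyte markers, CD68 was higher, with 122 ± 2.57 CPM in shATXN7L3 and 100.5 ± 10.6 CPM in shcontrol, and LYZ was lower, with 0.169 ± 0.0876 and 0.922 ± 0.254 CPM (SD, n = 3 each). Their sum ran from 119.7 to 125 CPM in shATXN7L3 libraries, against 89.6 to 109 CPM in shcontrol libraries. Of the fibroblast markers only LUM was tested and was lower (4.73 to 5.48 CPM in shATXN7L3 libraries, against 23.0 to 27.2 CPM in shcontrol libraries). The other members of these lists had few counts and were not tested. PTPRC had 14 counts in shATXN7L3 and 10 in shcontrol, CD3E 0 and 2, CDH5 1 and 3, and VWF 14 and 20, over 3 libraries each. COL1A1 had 15 counts in shATXN7L3 and 25 in shcontrol, COL1A2 3 and 6, COL3A1 7 and 8, and DCN 12 and 11. Whether the differences in these markers have a part in the levels of the LAMA3 neighbours was not tested.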

How the data were processed

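The authors deposited raw read counts per gene for the 6 libraries, with exon coordinates, strands and lengths, in 1 table. Per the submitters' processing notes, the tools were featureCounts (Subread 1.5.1), STAR 2.5.3a, Trimmomatic 0.36 and edgeR 3.12.1, on GRCh38. Strand setting, annotation release and treatment of multiply mapped reads: not given in the sources used here. Groups came from the treatment label. The 9 neighbours, the gene lists and the comparisons were chosen with earlier results of these data known.

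Counts were filtered with filterByExpr (minimum count 10, minimum total 15), which kept 17935 genes, and scaled by TMM. The test was edgeR's quasi-likelihood F-test (edgeR 4.0.16, R 4.3.3), its p-values were adjusted by Benjamini-Hochberg over every tested gene, and genes under 0.05 were called. SEs of log2 fold changes are approximate, the absolute value over the root of F. The procedure was tested on simulated counts. Gene types came from GENCODE on the same build. Named genes were the neighbours, LAMA3, ATXN7L3, the other tested genes of the interval, called or nearest genes of the flanks, up to 4 called members of each list (OSBP was added after its value was seen), the 2 nearest patterns per neighbour and marker genes. Alternatives were other scalings and filters, DESeq2 1.42.0, limma 3.58.1 with voom, a block for the replicate number, single libraries left out and other interval widths. Some results of the lists are not reported here.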

Additional observations from a re-analysis of the deposited data

How the results depend on the processing

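Over 14 alternatives, the log2 fold changes ranged from 1.89 to 2.00 for ANKRD29, 1.68 to 1.77 for LAMA3, 0.61 to 0.68 for NPC1, 0.21 to 0.29 for OSBPL1A and -0.46 to -0.31 for CABLES1, and these genes kept their calls in each. The number of neighbours called was 5 in the main comparison and 4 to 5 with single libraries left out, and 4 with library size alone; RIOK3 was the one lost. TTC39C, which was never past the threshold, changed sign with library size alone (0.036), without shATXN7L3 replicate 3 (0.010) and without shcontrol replicate 3 (0.018), against -0.007 in the main comparison; with single libraries left out it lay between -0.024 and 0.018. The flanks held 3 called genes at 2 Mb, 1 at 1 Mb and 6 at 5 Mb, all lower; the number of genes tested changes with the width. Over all genes, 4332 were called (2182 higher, 2150 lower), 3008 by DESeq2 and 3090 to 4405 with single libraries left out. Library size alone gave 2955 higher and 1604 lower, with the median of all genes at 0.049, against 0.006. With the replicate number as a block, 5 neighbours and 4328 genes were called. Libraries with the same number did not deviate together (correlations of -0.016, 0.005 and 0.044), so the numbers were not taken to pair the libraries. Depth limits TMEM241, TTC39C and ANKRD29 in shcontrol most, since these had the fewest counts of the neighbours.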
